A study of Mus musculus with 20 samples.

Results

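Lungs of C57BL/6 mice that ate flaxseed without being irradiated were compared with lungs of mice that had no treatment, over all 9600 clones of a membrane array. The compared arrays were 10 of the 20 in the series, chosen by their treatment labels. They were of 5 mice labelled with a 3-week diet holding 10% flaxseed and 5 mice labelled as having no treatment. The other 10 arrays, 5 of mice given 13.5 Gy to the thorax and 5 of mice given both flaxseed and that dose, with lungs taken 48 hours later, were used for the estimate of spread and to set the diet difference beside that of irradiated mice. All mice were of one inbred strain and each array read 1 mouse. The labels do not give the food of the untreated mice, so the diets are compared as labelled.

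Flaxseed is the seed of Linum usitatissimum. It is rich in alpha-linolenic acid, an omega-3 fatty acid, and in the lignan secoisolariciresinol diglucoside, which gut bacteria turn into enterolactone and enterodiol. Enterolignans bind estrogen receptors weakly and act as antioxidants, and flaxseed diets have been studied in mice for protection of the lung against oxidative damage. The array held spotted cDNA clones read with radioactive cDNA made from total lung RNA, so the signal of a clone follows the amount of matching RNA in the whole tissue. In such tissue RNA, fewer cells of a type and less RNA per cell cannot be told apart. The files identify the clones by serial IDs and pair none with a gene name, and 0 of the 9600 IDs matched the mouse RefSeq table, so clones are given by ID and the lung markers that would check the tissue could not be read.

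Median spot signals were 218, 152, 130, 123 and 133 intensity units in untreated mice 1 to 5, and 104, 173, 183, 110 and 155 units in flaxseed-fed mice 1 to 5. The ranges overlapped widely, and the mean log2 median signal differed by -0.06 (flaxseed minus untreated, exact permutation p = 0.786). Median backgrounds were 35.8 units in untreated mouse 1 and 15.8 to 18.6 in the other 4, and they were 28.6 to 30.4 units in flaxseed-fed mice 2, 3 and 5 and 14.3 and 15.0 units in mice 1 and 4. The lowest spot background of each array split all 20 into a lower background class (up to 7.31 units) and a higher (from 11.1). The higher class held 1 of 5 untreated and 3 of 5 flaxseed-fed arrays, and no label says what the classes are. Spots above 2 times their background made up 89.9% to 93.4% of an untreated array and 86.9% to 93.4% of a flaxseed array (exact permutation p = 0.254). The spread of clones around their group mean was 0.309 to 0.346 log2 units (SD) on untreated arrays and 0.339 to 0.459 on flaxseed arrays. Its mean was higher by 0.0504 with flaxseed (exact permutation p = 0.0317, 0.127 after Benjamini-Hochberg adjustment over 4 array measures), and by 0.012 without flaxseed-fed mouse 4. The brightest spots reached the same ceiling of 101691 units on flaxseed-fed mice 2, 3 and 5 and on untreated mouse 2, for 3, 1, 3 and 1 clones.

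Mice differed about as much within a diet as between the diets. Pairs of untreated mice correlated across clones with a mean r of 0.954 (0.947 to 0.960 over 10 pairs), pairs of flaxseed-fed mice with 0.938 (0.918 to 0.958 over 10 pairs), and pairs of 1 untreated and 1 flaxseed-fed mouse with 0.943 (0.915 to 0.953 over 25 pairs). These are relations across clones, which are not independent replicates. Untreated mice were most alike on average, and the mean of the mixed pairs lay between the means of both kinds of pairs of one diet. The largest component of variation among the 10 arrays, 20.5% of the variance, set flaxseed-fed mouse 4 apart at a score of -42.2, while the other 9 mice lay between -12.8 and 19.0. Its group means were -2.66 ± 25.2 with flaxseed and 2.66 ± 9.26 without (SD, n = 5), and they did not differ beyond the spread (exact permutation p = 0.738).

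The second component, 15.0% of the variance, came closer to the diets. Untreated mice 1 to 5 scored 17.3, 2.29, 17.6, 17.8 and 1.83 on it, and flaxseed-fed mice scored 8.56, -17.3, -9.30, -16.3 and -22.5. All untreated mice were positive, and flaxseed-fed mouse 1 alone among its group was too, so the groups overlapped. The difference of -22.8 had an exact permutation p of 0.0238, and 0.0714 after Benjamini-Hochberg adjustment over 3 components (0.0238 to 0.214 over the alternatives). Within arrays of lower background the difference was -13.7 (4 untreated, 2 flaxseed-fed mice), and within arrays of higher background it was -33.7 (1 and 3 mice). The third component, 12.2% of the variance, differed by 13.8 (exact permutation p = 0.103).

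**Figure D1:**
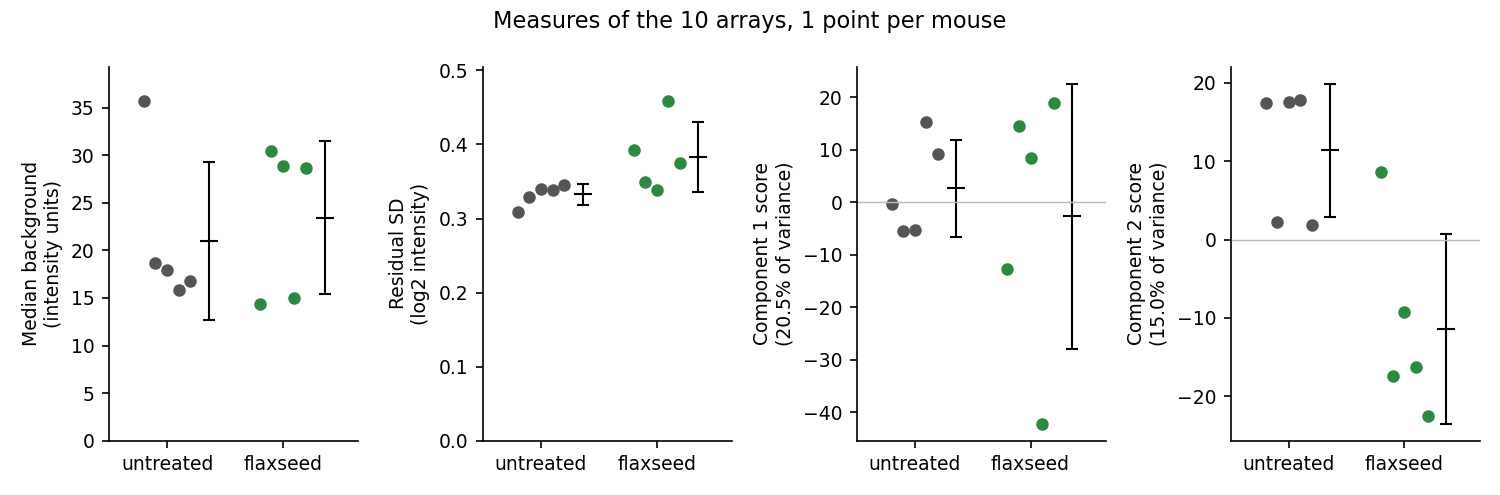
Each point is 1 mouse, and the bars show mean ± SD of the 5 mice of a group. The panels give median background in intensity units, residual SD in log2 units and the scores on the first and second components: flaxseed-fed mouse 4 stands apart on the first, at -42.2, and flaxseed-fed mouse 1 alone overlaps the untreated mice on the second, at 8.56.

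The comparison asked what the diet changed in lungs that were not irradiated. No clone passed at an adjusted p under 0.05 in limma, a linear model with moderated variances (0% of 9600), and the smallest adjusted p was 0.0758. Differences were small: the median clone differed by 1.13-fold, and 95% of them lay between -0.60 and 0.56 on the log2 scale. A difference of 2-fold or more was seen in 29 clones (0.302%), 12 higher and 17 lower with flaxseed. Among these the groups of mice were fully separated for 3, and 24 had an unadjusted p under 0.05. They were noisy clones, with a median SE of 0.400 log2 units against 0.223 over all clones.

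At an unadjusted p under 0.05 stood 869 clones (9.05%), where 480 would be expected on average with no difference anywhere. Clones that vary together widen the range of counts around 480 that would arise without a difference, and that range was not measured. Of the 869 clones, 447 were higher (4.66%) and 422 lower (4.4%) with flaxseed. The split depended on the processing: it was 430 higher and 346 lower after cyclic loess, 289 higher and 702 lower after median scaling, and 318 higher and 660 lower in the authors' processed values, which also differ in their background handling. At an unadjusted p under 0.001 stood 35 clones, 17 higher and 18 lower, where 9.6 would be expected, with a median size of 1.73-fold. The 5 flaxseed-fed mice lay above all 5 untreated mice for 74 clones (0.771%) and below all of them for 85 (0.885%). That is 159 clones in all (1.66%). If the labels were exchangeable, a fraction of 0.00794 of the clones would separate on average, both directions counted. The range around that fraction was not measured.

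The data bound the size of a diet difference for most clones. The 95% confidence interval of a clone reached 0.46 log2 units to either side of its difference in the median, which is 1.38-fold, and its half-width was 0.31 to 0.73 from the 5th to the 95th percentile. The far end of the interval lay at 1.58-fold for the median clone, and below 2.27-fold for 95% of clones. A test against differences of 2-fold or more in either direction, adjusted over all clones, placed 8862 clones (92.3%) within 2-fold at an adjusted p under 0.05. Within 1.5-fold it placed 2058 clones (21.4%), a count that ran from 0 to 5833 under other processing and is no firm limit. For 14 clones the interval still reached 4-fold. These folds are on the log2 scale with 16.3 intensity units added, which shrinks the differences of dim clones. With nothing added 8205 clones were within 2-fold, and with plain background subtraction 7126.

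The other side of the limit is the measured difference that a lone changed clone would have needed to be called. With adjustment over 9600 clones this was 1.33 log2 units, or 2.52-fold, for the median clone, and 1.87-fold to 4.33-fold from the 5th to the 95th percentile. A lone measured difference of exactly 2-fold would have passed for 1098 clones (11.4%), and one of 4-fold for 8944 (93.2%). These shares are not rates of detection, as a true change of the same size can be measured smaller and go uncalled. The required size falls where many clones change together. For most clones this size lies above the bound just given, so differences below the bound could be present in single clones without a call.

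**Figure D2:**
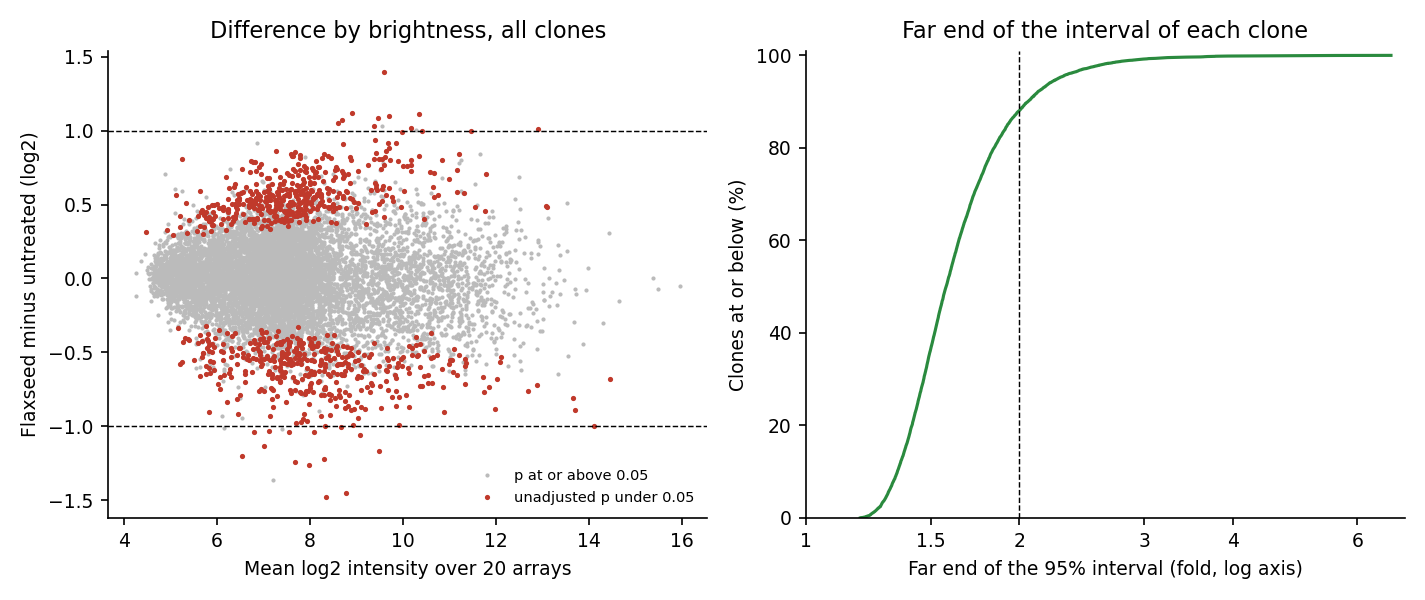
The left panel plots each clone's difference, flaxseed minus untreated, on the log2 scale against its mean log2 intensity over 20 arrays, with clones at an unadjusted p under 0.05 in red and dashed lines at 2-fold. The right panel shows the share of clones whose 95% interval ends at or below a given fold, with a dashed line at 2-fold: the median clone lies at 1.58-fold.

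Limits and small p-values both depended on brightness. In the dimmest decile of clones by mean log2 intensity, which held 960 clones and where the median spot was 1.68 times its background, 18 had an unadjusted p under 0.05. The count was 144 in the eighth decile and 132 in the ninth, and it was 79 in the brightest, where the median spot was 41.1 times its background. In each decile 48 would be expected with no difference anywhere, and the dimmest lay below that count. Over all clones the share was 9.05%. Why the counts differ by brightness was not tested. The share of clones within 2-fold went from 99.0% in the dimmest decile to 82.0% in the ninth and 86.0% in the brightest, and the median half-width from 0.33 to 0.55 and 0.56 log2 units. In the dimmest decile a narrow bound says little about the RNA, because the added intensity is large against the signal there. Of these clones, 28 were higher and 51 lower with flaxseed in the brightest decile, 50 were higher and 25 lower in the fourth, and 10 were higher and 8 lower in the dimmest. Whether the direction differed between deciles was not tested.

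**Figure D3:**
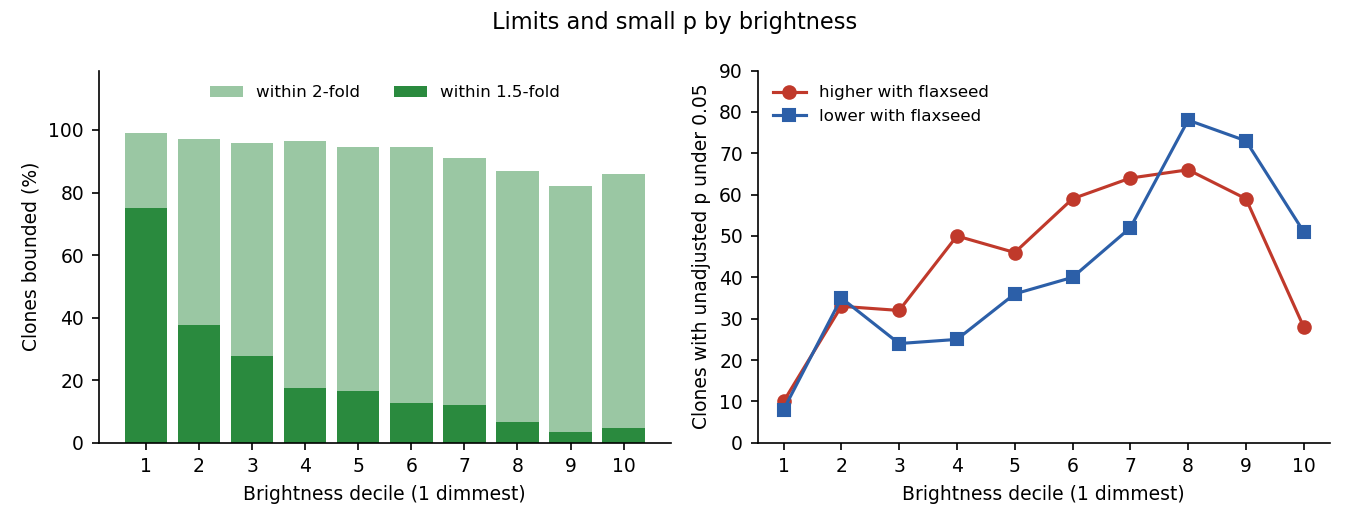
Clones are split into deciles of 960 by mean log2 intensity, with the dimmest at the left. The left panel shows the percentage of clones placed within 2-fold and within 1.5-fold. For 2-fold it is 99.0% in the dimmest decile, 82.0% in the ninth and 86.0% in the brightest. The right panel counts clones at an unadjusted p under 0.05 that were higher or lower with flaxseed.

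Clones are next given by ID for the 2 smallest p-values in each direction, a choice that fixes their direction and separation in part. The clone gene8290 had the smallest p of all and was dimmer with flaxseed. It read 7.10, 6.90, 7.36, 7.86 and 7.24 log2 intensity in untreated mice 1 to 5, and 5.78, 6.59, 6.41, 6.07 and 6.42 in flaxseed-fed mice. Every flaxseed-fed mouse lay below every untreated one. The difference was -1.04 (95% interval -1.41 to -0.67, limma adjusted p = 0.0758), or 2.05-fold. It was -1.41 within arrays of lower background and -0.63 within those of higher background, where there was 1 untreated mouse. Its adjusted p was 0.019 without untreated mouse 2, 0.0463 without flaxseed-fed mouse 5, and 0.0218 with the local trend over the membrane removed, each of which makes it a call, and 0.279 when only the 10 arrays entered the fit. Over all alternatives it ran from 0.019 to 0.804.

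The clone gene7338 was also lower with flaxseed, though less evenly. Untreated mice read 8.20, 8.20, 8.13, 8.59 and 7.70 log2 intensity, and flaxseed-fed mice read 7.15, 7.00, 7.01, 6.92 and 7.87. Flaxseed-fed mouse 5 reached into the untreated range and the other 4 lay clearly below it. The difference was -0.97 (95% interval -1.37 to -0.58, limma adjusted p = 0.155), and without that mouse it was -1.15 with an adjusted p of 0.0174 (0.0174 to 0.686 over all alternatives). Within arrays of lower and higher background it was -1.12 and -0.91.

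The clone gene0743 had the smallest p among clones brighter with flaxseed. Untreated mice read 6.85, 7.72, 6.99, 6.98 and 6.97 log2 intensity, and flaxseed-fed mice read 7.89, 8.12, 8.01, 7.86 and 7.78. The groups did not overlap, but untreated mouse 2 came within 0.06 log2 units of the lowest flaxseed-fed mouse. The difference was 0.83 (95% interval 0.49 to 1.17, limma adjusted p = 0.155), and without untreated mouse 2 it was 0.99 with an adjusted p of 0.0123 (0.0123 to 0.446 over all alternatives). Within arrays of lower and higher background it was 0.71 and 1.12.

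The clone gene3336 read 7.38, 7.87, 7.51, 7.76 and 7.34 log2 intensity in untreated mice and 8.01, 8.44, 8.27, 8.36 and 8.43 in flaxseed-fed mice, again without overlap. The difference was 0.73 (95% interval 0.39 to 1.07, limma adjusted p = 0.265). Its 8 neighbours on the membrane, which are other clones, were higher with flaxseed too, by a median of 0.46 and a range of 0.13 to 0.61 log2 units. With the local trend over the membrane removed the difference was 0.52 (adjusted p = 0.326, with 0.137 to 0.502 over all alternatives), and within arrays of lower and higher background it was 0.57 and 0.997. The neighbours of gene7338 differed by a median of -0.31, those of gene8290 by -0.27 and those of gene0743 by 0.15, each in the direction of the clone beside them.

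**Figure D4:**
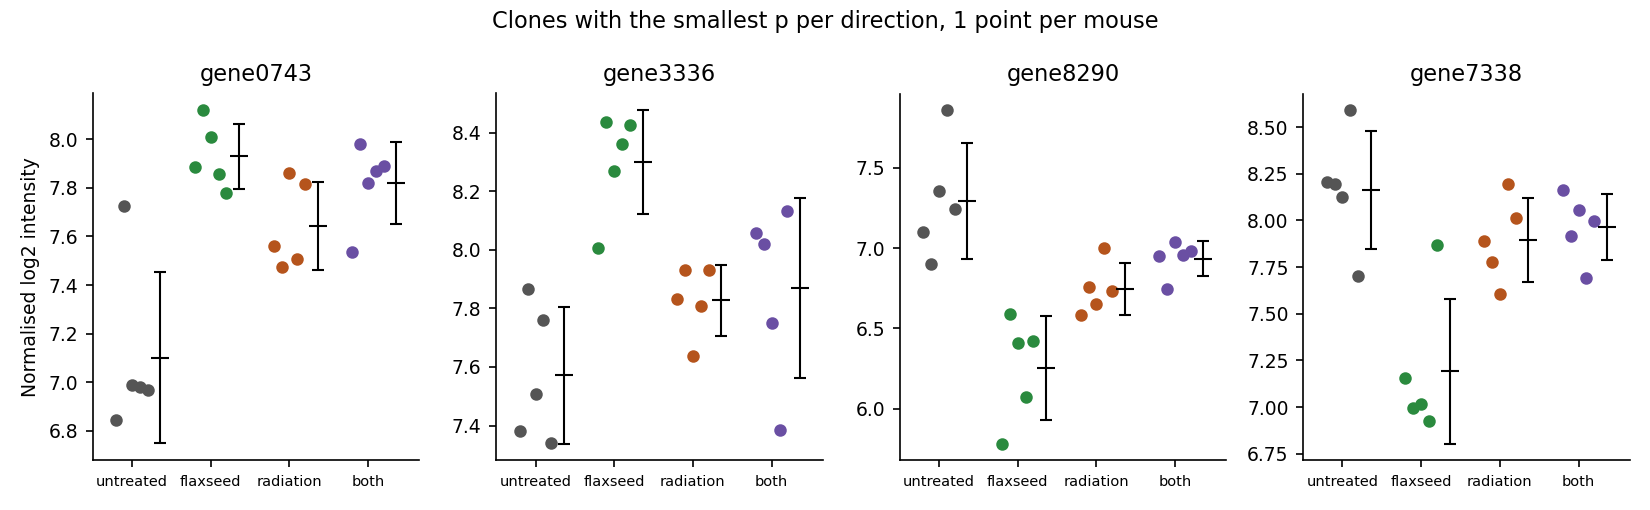
Each point is the normalised log2 intensity of 1 mouse, in the order of mouse number, and bars show mean ± SD of the 5 mice of a group, for untreated, flaxseed-fed, irradiated and doubly treated mice ("both"). For gene8290, gene0743 and gene3336 flaxseed-fed and untreated mice do not overlap, and for gene7338 flaxseed-fed mouse 5 lies at 7.87, within the untreated range.

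The measured diet difference varied with the place of a clone on the membrane. Clones of one membrane are not independent replicates, so the counts by place describe the map and test nothing. The order and numbering of the clones put them on a grid of 80 rows and 120 columns. It holds 384 blocks of 25 clones, in 16 rows of blocks. No label describes the layout, so all places on the membrane, the neighbours above included, are inferred. In the upper 8 rows of blocks 351 clones at an unadjusted p under 0.05 were higher with flaxseed and 124 lower, and in the lower 8 rows 96 were higher and 298 lower. There was a left-right contrast as well. In the left 12 columns of blocks 137 were higher and 254 lower, and in the right 12 there were 310 higher and 168 lower. No value per mouse was taken for the left-right contrast. Of the 35 clones at p under 0.001, 16 of the 17 higher ones lay in the upper part and 16 of the 18 lower ones in the lower part. The median difference was 0.12 and 0.13 log2 units in the first and second rows of blocks, and -0.12 and -0.18 in the last 2.

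Each mouse has its own value for the contrast of upper with lower rows. The mean of each clone over all 20 arrays was first taken off. The value is the median over the upper 40 rows of the grid minus that over the lower 40. It was -0.0770, -0.107, -0.0360, -0.152 and -0.223 log2 units in untreated mice and -0.0462, -0.0547, 0.0119, 0.0940 and -0.0287 in flaxseed-fed mice. All untreated mice were negative, and flaxseed-fed mice scattered around 0, with overlap. The irradiated arrays help to set that 0, so it does not mark a membrane without a trend. Only differences between groups can be read. The difference of 0.114 had an exact permutation p of 0.0238, for a measure chosen after the map had been seen, and it was 0.153 and 0.0532 within arrays of lower and higher background. In irradiated mice the diets differed by 0.0556 on the same measure (exact permutation p = 0.437).

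The small p-values were read again with the local trend over the membrane, a running median, removed from each array. Then 835 clones had an unadjusted p under 0.05, of which 531 were among the 869 in the same direction. Their directions were spread more evenly, with 218 higher and 202 lower in the upper rows, and 181 and 234 in the lower. A more even split by region follows from the step itself, because it takes the local median off each array. Of all clones 1 passed at an adjusted p under 0.05, gene8290, at -0.90 (SE 0.14, adjusted p = 0.0218). The removal also narrowed the median half-width to 0.40 log2 units and placed 9173 clones (95.6%) within 2-fold. Clones whose true differences cluster on the membrane would lose part of them by this step, and whether any do was not tested.

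**Figure D5:**
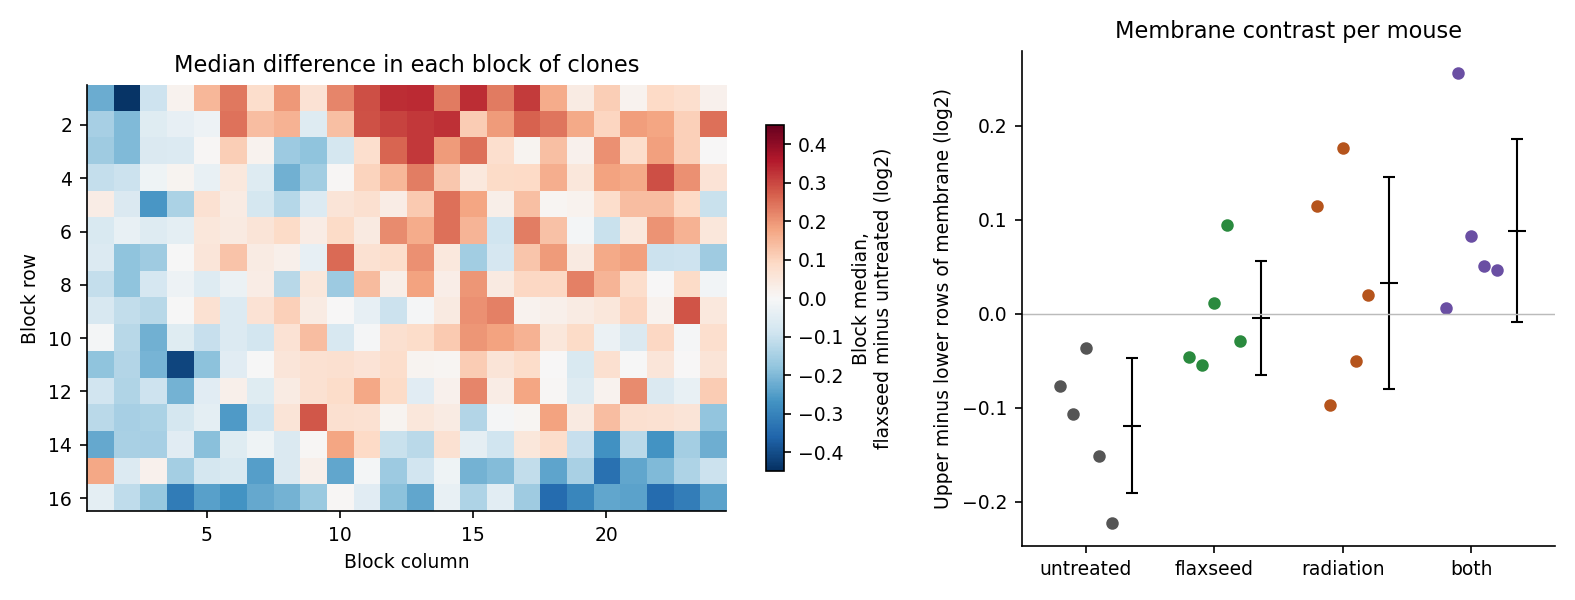
The map gives the median difference, flaxseed minus untreated on the log2 scale, in each of 384 blocks of 25 clones, from -0.44 to 0.34, with red for higher and blue for lower with flaxseed. The right panel gives 1 point per mouse for the upper minus the lower rows of the membrane, with mean ± SD of 5 mice. All untreated mice lie below 0, a level set by the clone means over all 20 arrays.

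In irradiated mice the same diet was compared on other animals, 5 with flaxseed and radiation and 5 with radiation alone. There limma called 0 of 9600 clones (0%), and 580 (6.04%) were under 0.05 before adjustment. Across clones the diet differences in unirradiated and irradiated mice correlated weakly, with Pearson r = 0.0928 and Spearman rho = 0.102 over 9600 clones that share their membrane positions. Of the 869 clones with small p in unirradiated mice, 515 (59.3%) had the same sign in irradiated mice, where 53.0% of all clones did. Their median size went from 0.56 log2 units in unirradiated mice to 0.06 in the same direction in irradiated mice, and picking clones by p in unirradiated mice makes the first value larger by itself.

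The clones given by ID showed small diet differences in irradiated mice. There, gene8290 read 6.74 ± 0.16 without flaxseed and 6.93 ± 0.11 log2 intensity with it (SD, n = 5), a diet difference of 0.19 (95% interval -0.18 to 0.56). For gene7338 the difference was 0.07 (-0.33 to 0.46), for gene0743 0.18 (-0.17 to 0.52) and for gene3336 0.04 (-0.30 to 0.38). The test of the difference between the diet effects gave 1.23 for gene8290 (95% interval 0.70 to 1.75, limma adjusted p = 0.247), and none of the 4 clones passed it. The 4 clones were picked by their difference in unirradiated mice, which is part of the value tested. That pick by itself makes the value larger and moves its interval away from 0. This interaction test called 0 of all clones in limma (0%), and before adjustment 578 (6.02%) were under 0.05. The interval of an interaction was wide, with a median half-width of 0.66 log2 units.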

How the data were processed

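Lung RNA of 20 mice was read on 1 membrane array per mouse, and groups were taken from the treatment labels, with mice numbered 1 to 5 in accession order. The authors deposited linear median signal and background intensity for 9600 spots, per the file headers; for the scanner and any spot filter nothing is stated there. The authors' deposited table of processed values, which equalled signal minus background over its array median for 98.1% of values within a relative tolerance of 0.001 and the constant 0.002 for the others, served as an alternative.

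Signals were background-corrected with normexp, 16.3 units added (0.1 times the overall median signal), log2-transformed and quantile normalised with limma 3.58.1 in R 4.3.3. One mean per group was fitted to all 20 arrays (16 residual and 6.08 prior degrees of freedom) with lmFit and eBayes; tests were two-sided and adjusted by Benjamini and Hochberg over 9600 clones. Bounds used 2 one-sided moderated tests per clone. Scores and array measures were compared by two-sided exact permutation tests, which cannot go below p = 0.00794. The fit was tested on simulated data with independent noise for each clone and array, which leaves out the membrane pattern seen here. No clone was filtered out. The number of arrays limits the precision. Clones given by ID are the 2 smallest p-values per direction, as no gene names were at hand. The arrays and the rule were chosen with earlier results of these data known.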

Additional observations from a re-analysis of the deposited data

Results flagged for a closer look

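Among 30 sets of 5 mice tested for a value far from the rest, 3 held one, and 1.5 would be expected by chance. Untreated mouse 1 had a median background of 35.8 units, and the other untreated mice had 15.8 to 18.6. For gene0743, untreated mouse 2 read 7.72 log2 intensity while the other untreated mice read 6.85 to 6.99. For gene7338, flaxseed-fed mouse 5 read 7.87 log2 intensity while the other flaxseed-fed mice read 6.92 to 7.15.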

How the results depend on the processing

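No paired analysis was possible because the labels give every mouse its own number. Clones called for the diet numbered 0 under the alternatives run, except 1 (gene8290) with the local membrane trend removed and 7 within arrays of higher background, with 1 untreated mouse. With single mice left out they numbered 0 to 3: 2 without untreated mouse 2 (gene0743, gene8290) and 3 without flaxseed-fed mouse 5 (gene8290, gene7338 and a clone higher with flaxseed). The interaction had 2 calls with the trend removed, and 0 to 1 with single mice left out. Clones at an unadjusted p under 0.05 numbered 719 to 915 with mice left out, and 487 among the brightest 50%, where 4209 were within 2-fold because only 4800 were tested. Clones within 2-fold were 67.8% in the authors' table at the lowest and 95.6% at the highest. The count within 1.5-fold was 0 with no background correction, plain subtraction, no offset, median scaling, either brightness filter, the filter at 2 times background, or the authors' table with its constant as missing. It was 6 in the authors' table, 713 with the background class as a term, 5119 with the trend removed, 5833 with 50 units added, and 0 to 2206 with mice left out; the cause was not tested. The first component's difference turned to 3.13 with median scaling, 0.0237 with the trend removed and 20.8 in the authors' table, and ran from -15.1 to 16.9 with mice left out, at 16.9 without flaxseed-fed mouse 4 and 1.49 without untreated mouse 4, and it passed in none. The second component's difference passed in some alternatives and not in most. Its exact permutation p was adjusted to 0.0238 with median scaling, in the brightest 50%, with the trend removed and without flaxseed-fed mouse 1. It was adjusted to 0.0476 with the authors' constant as missing and without flaxseed-fed mouse 4, and to 0.214 in the authors' table. The second component was not matched between alternatives. The difference in residual SD passed with the trend removed (0.0524) and without flaxseed-fed mouse 3 (0.0534), each at an exact permutation p adjusted to 0.0317. It ran from 0.012 to 0.0652 with mice left out. The membrane contrast was 0.134 with no background correction (exact permutation p = 0.0556) and 0.0915 to 0.135 with mice left out, where untreated mouse 2 or 4 or flaxseed-fed mouse 4 took its p to 0.0556. By construction it was 0.000834 with the trend and -0.00128 with block row medians removed. The alternatives on the background class and block rows and for the membrane contrast were chosen after seeing the data.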
